A study of Mus musculus with 4 samples.

Results

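The collagen genes are the 44 genes of the mouse gene lists whose symbol is Col, a number, a and a number, among 28889 genes listed in the 3 libraries analysed. They were chosen by symbol alone, and none was left out. They fall into 9 structural groups, among them fibrillar, basement membrane network, beaded filament and transmembrane collagens. The libraries are single-cell RNA sequencing of liver tumours that were set up to compare KLF2 overexpression with its control. KLF2 replicates 1 and 2 came from mice injected with pT3-EF1α-KLF2, and vector replicate 2 from injection of the pT3 empty vector. Every mouse also received SB100X together with pT3-EF1α-AKT and with pT3-EF1α-c-MYC, where SB100X is the transposase that moves the plasmid inserts into the genome. The plasmids were given by hydrodynamic tail vein injection to male C57BL/6 mice, and the tumours were taken 10 weeks later, at the age of 18 weeks that the labels give. The EF1α promoter is not restricted to a cell type, so the transgenes act in whichever cells took up the plasmids. The labels call the libraries biological replicates without saying how many mice each held, so p-values measure the spread between these libraries. The matrix of vector replicate 1 was not analysed here, so every comparison sets 2 KLF2 libraries against 1 vector library.

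Collagens are triple-helical proteins of the extracellular matrix. Fibrillar chains such as those of types I, III and V are assembled into the tensile fibrils of connective tissue, and FACIT collagens decorate those fibrils. Type IV chains form the sheet of basement membranes under endothelium and around pericytes, and the multiplexins of types XV and XVIII are found at basement membranes too. In the liver, stellate cells and portal fibroblasts are the known sources of fibrillar collagen, and the matrix they lay down in chronic injury is fibrosis. KLF2 is a zinc finger transcription factor best known from endothelium, and Krüppel-like factors bind CACCC boxes.

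Type IV collagen genes lie in head-to-head pairs that share a promoter region, and the pair Col4a1 and Col4a2 made up most of the type IV counts in every class and library named here. In the GENCODE annotation of GRCm38, Col4a1 lies on the minus strand of chromosome 8 at 11198423 to 11312826 and Col4a2 on the plus strand at 11312805 to 11449287, so that their first 22 bases overlap. Col4a4 and Col4a3 on chromosome 1 are 71 bases apart, and Col4a6 and Col4a5 on the X chromosome 1308 bases apart. The RefSeq promoter windows of Col4a1 and Col4a2, of 250 bases before and 50 after the start, share 78 bases. They are shown here because the pair moved together, and those of Col1a2 and Col3a1 because these fibrillar chains, together in mesenchymal-like cells, were apart in the cluster led by Ibsp. Capitals mark the CACCC box (reverse complement GGGTG), the CCAAT box (reverse complement ATTGG) and the TATAAA box, and all windows read 5′ to 3′ on the strand of the gene (RefSeq, GRCm38.p6).
Col4a1 (chr8:11312777-11313076, minus strand): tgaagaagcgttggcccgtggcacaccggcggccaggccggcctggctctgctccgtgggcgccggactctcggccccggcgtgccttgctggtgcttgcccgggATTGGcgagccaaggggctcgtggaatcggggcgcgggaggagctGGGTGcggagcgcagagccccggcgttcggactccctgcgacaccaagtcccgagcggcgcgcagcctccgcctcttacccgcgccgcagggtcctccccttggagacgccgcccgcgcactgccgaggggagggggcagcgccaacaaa
Col4a2 (chr8:11312555-11312854, plus strand): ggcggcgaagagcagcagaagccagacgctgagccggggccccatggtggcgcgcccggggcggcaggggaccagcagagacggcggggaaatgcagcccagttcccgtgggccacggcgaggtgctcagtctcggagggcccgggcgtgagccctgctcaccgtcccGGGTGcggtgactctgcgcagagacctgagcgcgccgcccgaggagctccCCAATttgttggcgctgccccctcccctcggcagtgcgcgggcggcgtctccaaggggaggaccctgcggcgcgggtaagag
Col1a2 (chr6:4505368-4505667, plus strand): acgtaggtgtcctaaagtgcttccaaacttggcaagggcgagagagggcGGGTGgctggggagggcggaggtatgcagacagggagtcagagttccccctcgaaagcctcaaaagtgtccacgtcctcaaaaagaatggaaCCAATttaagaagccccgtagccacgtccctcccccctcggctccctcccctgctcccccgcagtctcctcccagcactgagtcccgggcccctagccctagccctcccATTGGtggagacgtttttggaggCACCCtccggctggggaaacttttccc
Col3a1 (chr1:45311288-45311587, plus strand): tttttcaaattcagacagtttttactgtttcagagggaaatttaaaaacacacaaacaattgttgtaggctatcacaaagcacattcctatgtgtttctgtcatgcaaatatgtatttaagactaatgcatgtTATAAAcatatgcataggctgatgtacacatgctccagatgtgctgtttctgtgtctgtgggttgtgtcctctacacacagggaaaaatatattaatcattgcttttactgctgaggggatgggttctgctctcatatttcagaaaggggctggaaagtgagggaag
CACCC or GGGTG was found in 29 of the 38 collagen promoter windows of the RefSeq table (76.3%), against 57.5% of all 32851 windows in that table. CCAAT or ATTGG was found in 13 of the collagen windows (34.2%, against 37.4% of all), and TATAAA or TTTATA in 5 (13.2%, against 13.6%). GGGCGG or CCGCCC, the GC box, was found in 23 (60.5%, against 35.7%). A match describes the letters in a window and was not tested as a binding site.

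The libraries differed in depth and quality before any collagen was counted. KLF2 replicates 1 and 2 held 95374838 and 125458473 UMIs, counts of unique molecules, in 6282 and 11240 barcodes, against 45594544 UMIs in 12852 barcodes in vector replicate 2. The median barcode had 0.227% and 0.35% mitochondrial UMIs in the KLF2 libraries, against 16.3% in the vector library, and the filters on cells removed 1.16% and 1.22% of KLF2 barcodes, against 34.6% of vector barcodes. Barcodes are serial cell names in these files. Of these names, 1414 and 2373 in the KLF2 libraries, against 2801 in the vector library, also occurred in another library, which says nothing of shared cells. Klf2, the overexpressed gene, stood at 326 and 379 CPM (UMIs scaled to counts per 1000000 UMIs of the class in that library) in the tumour/parenchymal compartment of the KLF2 libraries, against 153 CPM in the vector library. The difference did not pass the edgeR test there (log2 fold change 0.52 ± 0.27 SE, adjusted p = 0.237), nor did it pass in mesenchymal-like (adjusted p = 0.891) or endothelial-like cells (adjusted p = 0.729) by edgeR. In myeloid-like cells it did not pass either (418 and 571 CPM, against 236 CPM, edgeR adjusted p = 0.144), and in T/NK-like cells it was lower in KLF2, at 339 and 336 CPM, against 617 CPM (log2 fold change −1.14 ± 0.28 SE, edgeR adjusted p = 6.0e-04). Whether UMIs of the plasmid transcript are counted under Klf2 is not given in the sources used here.

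Cells were grouped without using any collagen gene. Mesenchymal-like cells numbered 86 and 176 in the KLF2 libraries, against 355 in the vector library, and endothelial-like cells 98 and 246, against 1685. The tumour/parenchymal compartment, made of clusters that carry hepatocyte or cholangiocyte markers or lack both a name and Ptprc, held 5206 and 8335 KLF2 cells, against 652 vector cells. Its summed level of hepatocyte lineage markers, from a list of 12, was 41.5 and 68.2 CPM in the KLF2 libraries, against 8453 CPM in the vector library, with 11 markers detected in each, and the remaining entry of the list, Tf, is not a symbol of these gene lists. Of the 652 vector cells, 378 and 271 lay in clusters named by these same markers, so the high vector level follows from how the compartment was built. An unnamed vector cluster of 1060 cells was left out of it by its Ptprc level. The KLF2 compartment was nearly without the markers, and the same word stands for different cells in both groups.

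In the KLF2 libraries most collagen transcripts lay outside the mesenchymal-like cells, while in the vector library most lay within them. Of all UMIs of the 44 collagens, the mesenchymal-like cells held 20.5% and 23.3% in the KLF2 libraries, against 54.1% in the vector library. The endothelial-like cells held 2.39% and 3.56%, against 33.3%. The compartment held 75.7% and 69.3%, against 1.74%, and these shares move with the cell numbers of the classes, since the compartment made up 83.8% and 75.1% of the kept KLF2 cells, against 7.76% of the vector cells. A single unnamed cluster of the compartment, led by Ibsp, held 58.2% and 31.9% of all collagen UMIs of the KLF2 libraries. That cluster had 773 and 372 cells in the KLF2 libraries, against no cell in the vector library.

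**Figure D1:**
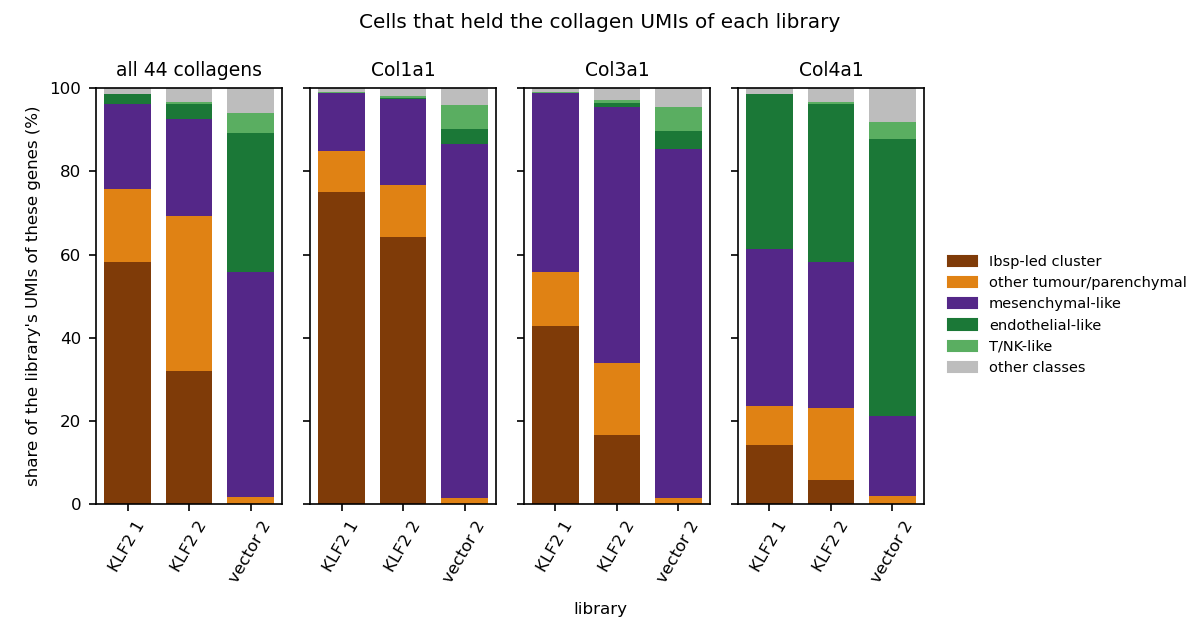
Share of each library's UMIs (%) of all 44 collagens, Col1a1, Col3a1 and Col4a1 by the cells that held them, with KLF2 replicates 1 and 2 left of vector replicate 2 and the classes stacked in colour. The Ibsp-led cluster held 75% and 64.1% of the Col1a1 UMIs in the KLF2 libraries, and the mesenchymal-like cells 85.1% in the vector library.

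The type I chains of the Ibsp-led cluster came with little type III collagen and from few cells. Col1a1 (chromosome 11, 94936224 to 94953042), a chain of the main fibrillar collagen of bone and scar, had 52023 UMIs in this cluster in KLF2 replicate 1 and 20152 UMIs in KLF2 replicate 2. In replicate 1, 1 cell held 7469 of these UMIs, and in replicate 2, 1 cell held 6677. Over all kept cells, 50% of the Col1a1 UMIs lay in 10 of 6209 cells and 11 of 11103 cells of the KLF2 libraries, against 62 of 8403 cells of the vector library. Within each library the Col1a1 total thus rested on very few cells, and on fewer in the KLF2 libraries than in the vector library.

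The ratio of Col3a1 to Col1a1 UMIs, a measure within 1 set of cells, was 0.109 and 0.0534 in the Ibsp-led cluster of the KLF2 libraries. In mesenchymal-like cells the same ratio was 0.59 and 0.614 in the KLF2 libraries, against 0.39 in the vector library. The ratio of Col1a2 to Col1a1 was 0.503 and 0.28 in the Ibsp-led cluster, and 0.968 and 0.812 in mesenchymal-like cells of the KLF2 libraries, against 0.61 in those of the vector library. Col3a1, the partner chain of type I fibrils in soft connective tissue, was thus low relative to Col1a1 in the Ibsp-led cluster of both KLF2 libraries.

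Sub-clusters of the Ibsp-led cluster, also formed without collagens, separated these chains. Sub-cluster 7, led by Ibsp with Ifitm5 and Dmp1, genes known from bone-forming cells, had 26 and 27 cells in the KLF2 libraries. Its Col1a1 level was 31056 and 20951 CPM and its Col1a2 level 15836 and 6910 CPM, while its Col3a1 level was 105 and 3.87 CPM. Col11a2, a chain of the cartilage fibril collagen of type XI, stood at 290 and 128 CPM in the same cells. Sub-cluster 4, led by Apod and Postn, had 50 and 40 cells with 6790 and 2044 CPM of Col1a1, 5714 and 1260 CPM of Col3a1 and 1750 and 819 CPM of Col6a1, a chain of beaded filaments. Col1a1 also far exceeded Col3a1 in sub-cluster 5 (496 and 903 CPM, beside 6.48 and 5.65 CPM) and in sub-cluster 8 (471 and 1556 CPM, beside 47.9 and 117 CPM), at much lower levels than in sub-cluster 7. Sub-cluster 4 had both chains at high levels. The vector library had no cell in any of these, so no comparison between groups can be made for them.

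**Figure D2:**
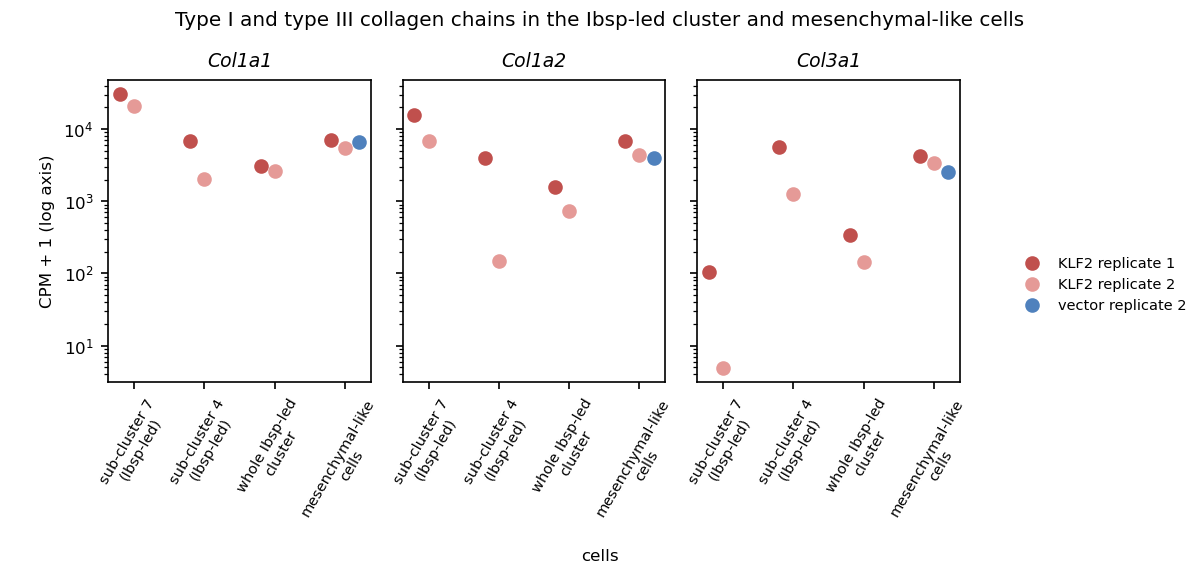
Levels (CPM + 1, log axis) of Col1a1, Col1a2 and Col3a1 in sub-clusters 7 and 4 and the whole of the Ibsp-led cluster, which has KLF2 cells alone, and in mesenchymal-like cells, with each point a library and KLF2 left of vector. Col3a1 was 105 and 3.87 CPM in sub-cluster 7, against 4202 and 3345 CPM in mesenchymal-like cells of the same libraries.

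Most of the collagens that could be tested were higher in mesenchymal-like than in endothelial-like cells. The 7 tested members that were not called higher were Col4a1, Col4a2, Col18a1, Col13a1, Col23a1, Col11a1 and Col6a6. Of 26 collagens tested between mesenchymal-like and endothelial-like cells with the library as a block, 19 were higher in mesenchymal-like cells (73.1%, against 10.9% of all genes tested) and 2 were lower (7.69%, against 9.35%). The median log2 difference was 4.0 for the collagens and 0.0 for all genes. Col1a2, the other chain of type I collagen, had 6896, 4422 and 3977 CPM in mesenchymal-like cells of KLF2 replicates 1 and 2 and vector replicate 2, against 35.5, 17.9 and 39.6 CPM in their endothelial-like cells (log2 difference 7.37 ± 0.30 SE, edgeR adjusted p = 5.7e-05). The ranges of both classes were far apart, and the same held for Col1a1 (6.42 ± 0.24), Col3a1 (6.72 ± 0.49) and Col6a1 (6.94 ± 0.28), each with an edgeR adjusted p of 1.5e-04 or less.

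The type IV chains of the general basement membrane did not separate the classes. Col4a1 had 1827, 1437 and 1961 CPM in mesenchymal-like cells of the same 3 libraries, against 2559, 1292 and 2138 CPM in endothelial-like cells, and these ranges overlapped (log2 difference −0.13 ± 0.18 SE, edgeR adjusted p = 0.696). Col4a2 likewise overlapped (−0.32 ± 0.20, edgeR adjusted p = 0.326). Their relatives on the X chromosome did not follow them, since Col4a5 was higher in mesenchymal-like cells by 5.06 ± 0.41 (edgeR adjusted p = 2.2e-04) and Col4a6 by 3.61 ± 0.97 (edgeR adjusted p = 0.0454). The ratio of Col4a2 to Col4a1 UMIs was 0.328 and 0.384 in mesenchymal-like cells of the KLF2 libraries, against 0.354 in those of the vector library. In endothelial-like cells it was 0.398 and 0.444, against 0.378. The paired genes kept nearly the same proportion in both classes and both groups.

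Endothelial-like cells had more of Col13a1 and Col18a1. Col13a1, a transmembrane collagen, had 3.68, 1.67 and 0.702 CPM in mesenchymal-like cells of KLF2 replicates 1 and 2 and vector replicate 2, against 38.6, 45.3 and 16.3 CPM in endothelial-like cells (log2 difference −4.06 ± 0.39 SE, edgeR adjusted p = 4.4e-04). Col18a1, the gene of the endostatin precursor, had 172, 70.1 and 176 CPM in mesenchymal-like cells, against 279, 199 and 283 CPM in endothelial-like cells (−0.92 ± 0.26, edgeR adjusted p = 0.0428). In each library the endothelial-like value was the higher one for both genes, without overlap of the classes. The Col18a1 call was lost when either KLF2 library was left out, which left 1 collagen lower in mesenchymal-like cells in each case.

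**Figure D3:**
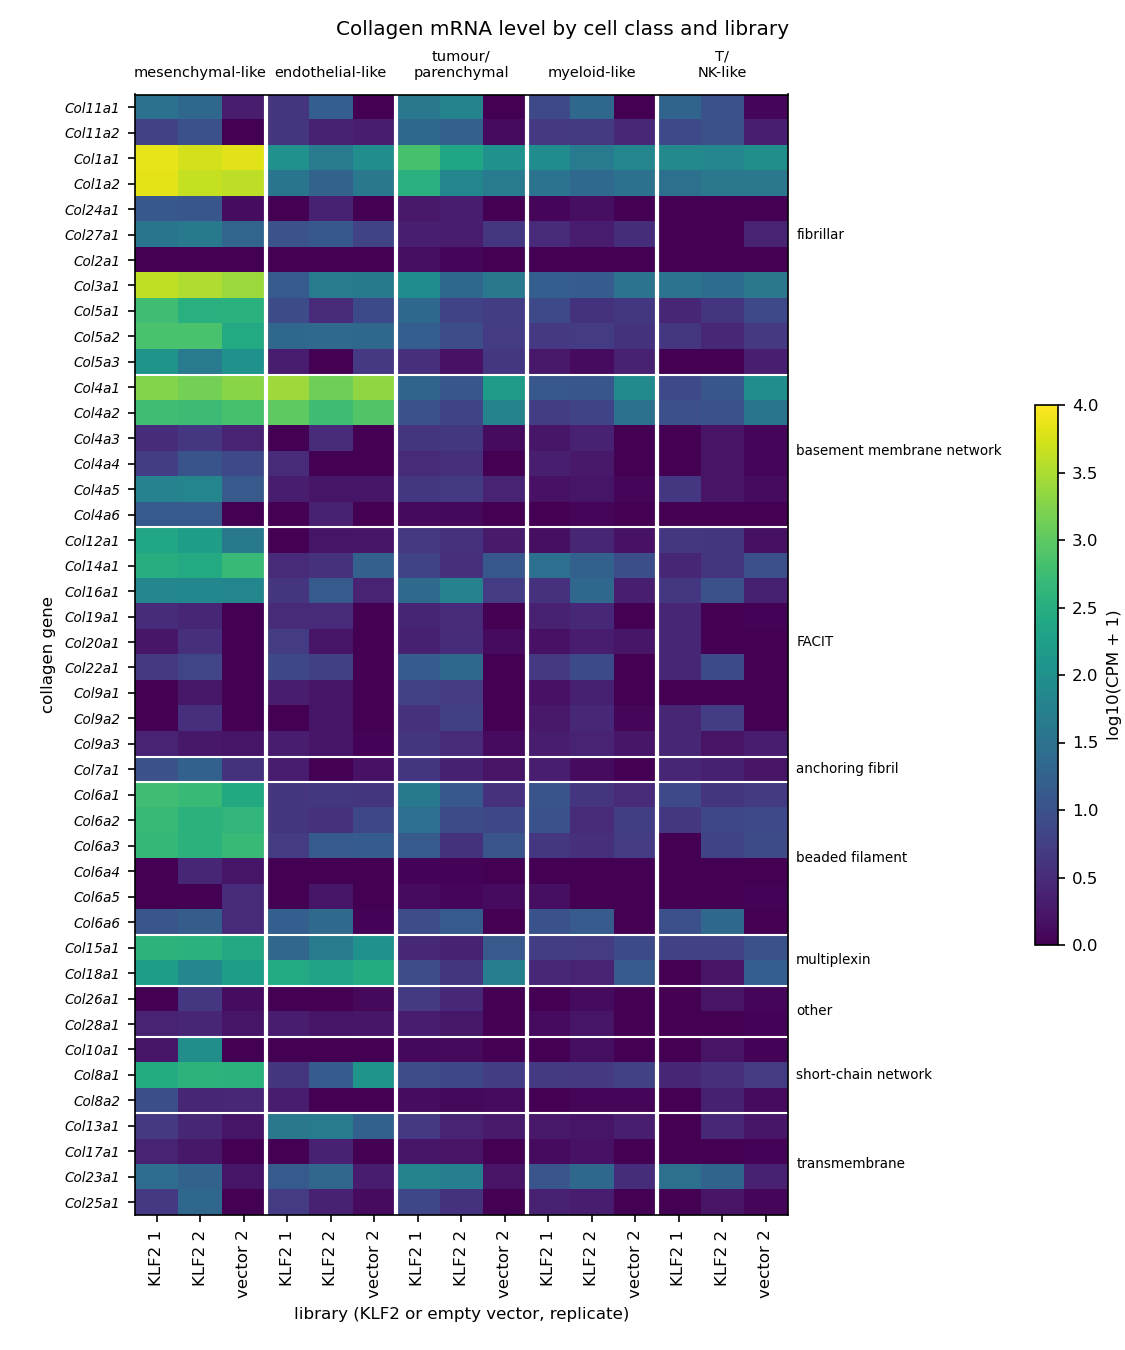
Level of each of the 44 collagens (rows, log10 of CPM + 1, by structural group, with FACIT for the fibril-associated collagens) in 5 cell classes, with KLF2 replicates 1 and 2 left of vector replicate 2 in each class. Col1a1, Col1a2, Col3a1, Col6a1, Col6a2 and Col6a3 are bright in mesenchymal-like cells of every library, and Col4a1 and Col4a2 in mesenchymal-like and endothelial-like cells alike.

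Within the mesenchymal-like cells, the fibrillar and beaded filament chains with the highest counts did not pass the test between KLF2 and vector. The members that passed came from several structural groups, and Col4a1 had the highest counts among them. Of 30 collagens tested, 8 were higher in KLF2 (26.7%, against 11.5% of all genes tested) and 3 were lower (10.0%, against 9.44%). The other 14 were below the filter on low counts, with no value above 5.84 CPM in any library. The median log2 fold change was 0.13 for the collagens, also with genes absent from the vector class at their lower bound, and 0.05 for all genes. These fold changes are on the TMM scale, which sets the typical gene near 0. Scaling by total UMIs moves the median gene up by 0.63 in this class, so CPM and log2 fold changes can point different ways for the same gene.

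The main fibrillar chains overlapped or lay close. Col1a1 had 7124 and 5447 CPM in KLF2 mesenchymal-like cells, against 6517 CPM in vector ones (log2 fold change −0.68 ± 0.29 SE, edgeR adjusted p = 0.0785). Col1a2 (chromosome 6, 4504814 to 4541544) had 6896 and 4422 CPM, against 3977 CPM (−0.12 ± 0.31, edgeR adjusted p = 0.844), and Col3a1 (chromosome 1, 45311538 to 45349706) 4202 and 3345 CPM, against 2542 CPM (−0.06 ± 0.33, edgeR adjusted p = 0.938). The vector value lay between the KLF2 values for Col1a1 and below both for Col1a2 and Col3a1, and none of the 3 passed. After thinning each cell to 1000 UMIs, 79.1% and 75% of KLF2 cells had a Col1a1 UMI, against 88.3% of vector cells (unthinned 91.9% and 85.2%, against 95.8%). The same thinned share in T/NK-like cells, which should lack the gene, was 7.45% and 8.86% in the KLF2 libraries, against 9.48% in the vector library, at median depths of 5210 and 3324, against 2972 UMIs. In mesenchymal-like cells the median depths were 6821.5 and 3833.5 UMIs in the KLF2 libraries, against 6096 UMIs in the vector library.

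Of the minor fibrillar chains, Col11a1 and Col24a1 were higher in KLF2. Col11a1 (chromosome 3, 114030540 to 114220718), a chain of type XI collagen that sets fibril width in cartilage, had 31.6 and 21.7 CPM in KLF2 mesenchymal-like cells, against 1.05 CPM in vector ones. Both KLF2 values were far above the vector value, which rests on 3 UMIs, so the pooled ratio of 25.6 has a 95% counting interval of 8.41 to 127 (edgeR adjusted p = 2.0e-06). Lymphocyte- and neutrophil-like cells had 13.5 and 15.9 CPM of Col11a1 in the KLF2 libraries, against 0.141 CPM in the vector library. The mesenchymal-like level was above theirs, beyond the counting intervals of both, in KLF2 replicate 1 but not in KLF2 replicate 2 or vector replicate 2, and the part of free RNA in this result was not tested. Col24a1, a fibrillar collagen known from developing bone, had 11.8 and 10.9 CPM, against 0.351 CPM from 1 UMI (ratio 32.3, counting interval 5.36 to 1320, edgeR adjusted p = 0.0282), and 1 cell held 9 of its 16 UMIs in KLF2 replicate 1. Col5a2, a type V chain that starts fibrils, had 706 and 710 CPM, against 279 CPM, without passing the test (0.72 ± 0.42, edgeR adjusted p = 0.239). Col5a1 (597 and 348 CPM, against 363 CPM) and Col5a3 (118 and 45.9 CPM, against 108 CPM), the other type V chains, had overlapping groups and were not called.

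Basement membrane chains went in different directions in these cells. Col4a1 had 1827 and 1437 CPM in KLF2 mesenchymal-like cells, against 1961 CPM in vector ones, and both KLF2 values were below the vector value (log2 fold change −0.89 ± 0.35 SE, edgeR adjusted p = 0.0499). Col4a2 had 600 and 552 CPM, against 695 CPM (−0.90 ± 0.39, edgeR adjusted p = 0.0877). Under scaling by total UMIs the change of Col4a1 was −0.26 with an edgeR adjusted p of 0.661. Col4a5 (X chromosome, 141475385 to 141689234), which is mutated in Alport syndrome in humans, had 58.1 and 65.9 CPM in KLF2 cells, against 12.3 CPM in vector cells (1.71 ± 0.51, edgeR adjusted p = 0.00689). Its neighbour Col4a6 had 12.5 and 12.5 CPM, against no UMI in the vector cells, which makes it at least 11.9-fold higher over a floor of 3 UMIs (edgeR adjusted p = 0.00248). Both genes of the X chromosome pair were higher in each KLF2 library than in the vector library, and both genes of the chromosome 8 pair were lower.

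Fibril-associated and other collagens completed the calls. Col12a1 (chromosome 9, 79598991 to 79718831), a FACIT collagen of tendon and of activated fibroblasts, had 249 and 169 CPM in KLF2 mesenchymal-like cells, against 41.1 CPM in vector ones (log2 fold change 1.72 ± 0.48 SE, edgeR adjusted p = 0.00299). Col14a1 (chromosome 15, 55307750 to 55520803), another FACIT collagen, had 315 and 273 CPM, against 489 CPM (−1.36 ± 0.40, edgeR adjusted p = 0.00613). For these FACIT genes the KLF2 values lay on opposite sides of the vector value. Under scaling by total UMIs the Col14a1 call was lost (−0.73, edgeR adjusted p = 0.219).

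Col18a1 had 172 and 70.1 CPM in KLF2 mesenchymal-like cells, against 176 CPM in vector ones, and KLF2 replicate 1 lay next to the vector value (−1.17 ± 0.42, edgeR adjusted p = 0.0318). Under scaling by total UMIs this call was lost too (−0.53, edgeR adjusted p = 0.412). Col23a1, a transmembrane collagen, had 25.7 and 17.5 CPM, against 0.702 CPM (ratio 31.2, counting interval 8.25 to 264, edgeR adjusted p = 1.9e-05), but lymphocyte- and neutrophil-like cells of the same libraries had 24.7 and 19.4 CPM, against 1.48 CPM, and the part of free RNA in this result was not tested. Col25a1, also transmembrane, had 3.68 and 20.9 CPM, against no UMI (at least 11.1-fold, edgeR adjusted p = 0.00363), with 18 of its 25 UMIs in KLF2 replicate 2 in 1 cell. Col10a1, the collagen of hypertrophic cartilage, had 0.736 and 95.2 CPM, against no UMI (at least 42.7-fold over both KLF2 libraries, edgeR adjusted p = 1.3e-13), and 90 of its 114 UMIs in KLF2 replicate 2 were in 1 cell. The Col10a1 and Col25a1 calls thus rested mainly on 1 cell of KLF2 replicate 2.

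Of the remaining chains with high counts, none passed the test in mesenchymal-like cells. Col6a1 had 595 and 498 CPM in KLF2 cells, against 272 CPM in vector cells (log2 fold change 0.38 ± 0.42 SE, edgeR adjusted p = 0.594), while the ratio of Col6a2 to Col6a1 UMIs was 0.86 and 0.745 in KLF2 cells, against 1.56 in vector cells. Col15a1, a multiplexin of vessel basement membranes, had 382 and 352 CPM, against 258 CPM (−0.12 ± 0.42, edgeR adjusted p = 0.896). Col8a1, a short-chain collagen of vessel walls, had 289 and 386 CPM, against 368 CPM (−0.75 ± 0.41, edgeR adjusted p = 0.202), with overlapping groups. Col7a1, the anchoring fibril collagen, had 8.83 and 16.7 CPM, against 2.81 CPM (1.54 ± 0.88, edgeR adjusted p = 0.222).

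The mesenchymal-like class was not the same population in both groups. Its main cluster had 74 and 110 KLF2 cells, against 355 vector cells, while a smaller one had 12 and 66 KLF2 cells, against no vector cell. Within the main cluster Col12a1 (1.74, edgeR adjusted p = 0.00493), Col4a5 (1.60, edgeR adjusted p = 0.0105), Col11a1 (3.96, edgeR adjusted p = 0.00186) and Col14a1 (−1.26, edgeR adjusted p = 0.0116) passed again, as did Col23a1 (edgeR adjusted p = 0.0055) and Col10a1 (edgeR adjusted p = 0.0237). Col4a1 (−0.69, edgeR adjusted p = 0.133), Col18a1 (−0.99, edgeR adjusted p = 0.0985), Col4a6 (edgeR adjusted p = 0.069), Col24a1 (edgeR adjusted p = 0.143) and Col25a1 (edgeR adjusted p = 0.06) did not. Summed cholangiocyte markers stood at 1423 and 2760 CPM in the KLF2 mesenchymal-like cells, with 8 of 8 detected, against 39.6 CPM in the vector ones, with 3 of 8. Summed T cell markers stood at 11.0 and 15.9 CPM, with 2 and 7 of 8 detected, against 360 CPM, with 8 of 8. The part of these other cell types in the collagen results was not tested.

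Sub-clusters within the class showed how collagens varied among mesenchymal-like cells. A KLF2 sub-cluster led by Saa3 (70 and 101 cells) had 7558 and 6298 CPM of Col1a1 and 1846 and 1552 CPM of Col4a1. A vector sub-cluster with leading genes such as Higd1b, Cox4i2 and Cspg4, known from pericytes, had 140 cells with 4624 CPM of Col1a1, 2574 CPM of Col4a1 and 429 CPM of Col18a1. Another vector sub-cluster, led by Igfbp3 and with the stellate cell gene Lhx2 among its leading genes, had 51 cells with 883 CPM of Col14a1 and 70.1 CPM of Col15a1. In the vector library Col4a1 and Col18a1 were thus highest in the sub-cluster of pericyte genes and Col14a1 in the one with Lhx2. None of the 5 sub-clusters had more than 3 cells of the other group.

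**Figure D4:**
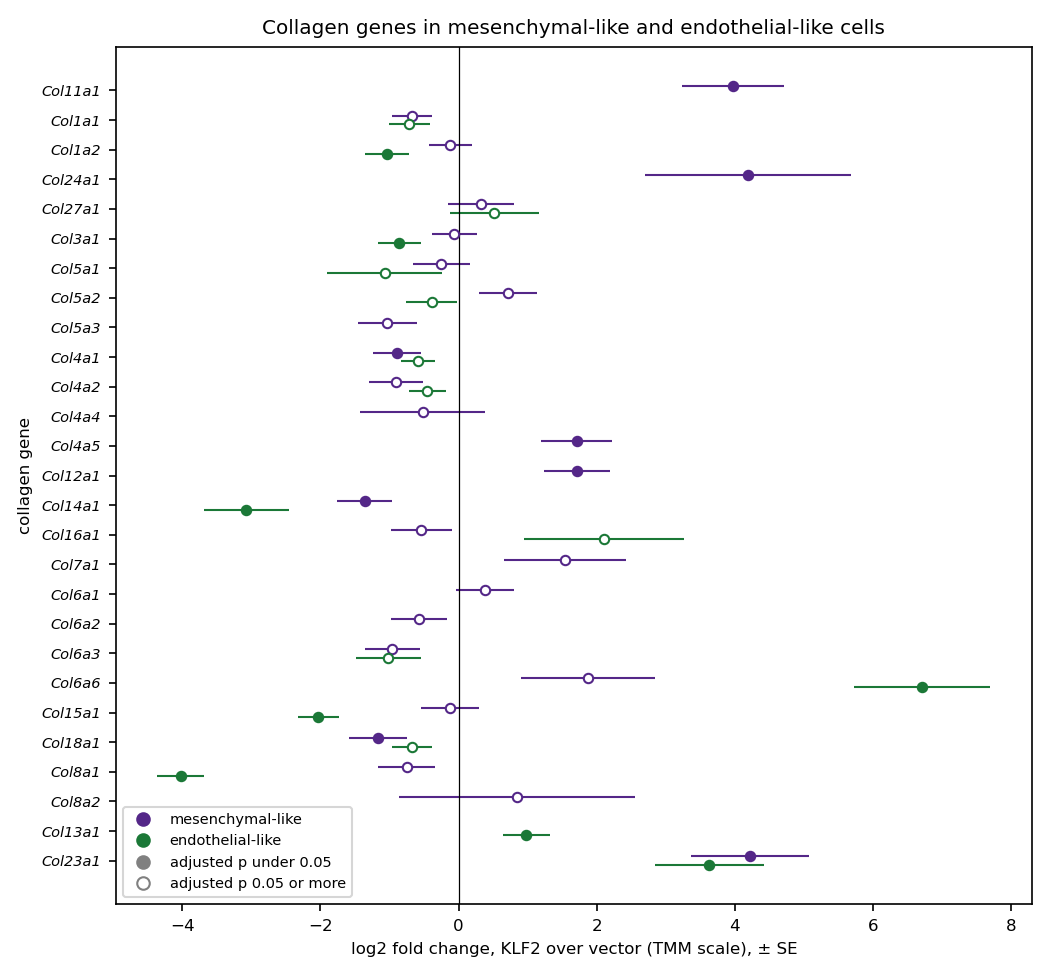
Log2 fold change of KLF2 over vector (TMM scale, ± SE) for tested collagens with a vector UMI in mesenchymal-like (purple) and endothelial-like cells (green), with filled points for an adjusted p under 0.05. Col8a1 and Col15a1 lie left of 0 and filled in endothelial-like cells, and near 0 or open in mesenchymal-like cells.

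In endothelial-like cells the vessel wall collagens Col8a1 and Col15a1 were lower in KLF2, while Col4a1, Col4a2 and Col18a1 did not pass the test. Of 18 collagens tested, 4 were higher in KLF2 (22.2%, against 14.2% of all genes tested) and 5 were lower (27.8%, against 13.6%). The median log2 fold change was −0.63 for the collagens and 0.03 for all genes, and scaling by total UMIs moves the median gene up by 0.40. Col8a1 (chromosome 16, 57624258 to 57754737) had 3.13 and 13.7 CPM in KLF2 endothelial-like cells, against 116 CPM in vector ones (log2 fold change −4.02 ± 0.34 SE, edgeR adjusted p = 1.5e-29). Col15a1 (chromosome 4, 47208161 to 47313167) had 19.8 and 44 CPM, against 104 CPM (−2.03 ± 0.30, edgeR adjusted p = 3.8e-10). Both KLF2 libraries were below the vector library for both genes.

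Within the endothelial cluster shared by all libraries, Col8a1 kept its direction and Col15a1 did not. In the 1 endothelial cluster with many cells of every library (38 and 101 KLF2 cells, against 109 vector cells), Col8a1 stayed lower, with 2.15 and 26.5 CPM, against 320 CPM (−4.58, edgeR adjusted p = 1.2e-26). Col15a1 turned round there, with 40.8 and 85.4 CPM in KLF2 cells, against 23.2 CPM in vector cells (1.20, edgeR adjusted p = 0.0438). The largest vector endothelial cluster, with 1284 vector cells and 3 and 6 KLF2 cells, had 137 CPM of Col15a1 in vector cells. The fall of Col15a1 over the class was thus the reverse of that in the shared cluster.

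Col14a1 had 2.09 and 2.75 CPM in KLF2 endothelial-like cells, against 16.1 CPM in vector ones (log2 fold change −3.07 ± 0.61 SE, edgeR adjusted p = 8.4e-06). The fibrillar chains Col1a2 (35.5 and 17.9 CPM, against 39.6 CPM) and Col3a1 (12.5 and 42.6 CPM, against 40.8 CPM) also passed (−1.03 ± 0.32, edgeR adjusted p = 0.00784, and −0.86 ± 0.31, edgeR adjusted p = 0.0267). Lymphocyte- and neutrophil-like cells had 47.8 and 36.1 CPM of Col1a2 in the KLF2 libraries, against 38.0 CPM in the vector library, so Col1a2 in endothelial-like cells was at or below their level in KLF2 and near it in vector. For Col3a1 the groups overlapped over the class, and under scaling by total UMIs neither Col1a2 (adjusted p = 0.255 by edgeR) nor Col3a1 (adjusted p = 0.372 by edgeR) passed. In the shared cluster Col3a1 passed as lower, with 12.9 and 16.2 CPM in KLF2 cells, against 34.8 CPM in vector cells (log2 fold change −1.51). Col1a2 did not pass there (−0.58).

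Col13a1 (chromosome 10, 61838236 to 61979108) was the one member called higher in endothelial-like cells that was also above the lymphocyte and neutrophil level in all 3 libraries. It had 38.6 and 45.3 CPM in KLF2 endothelial-like cells, against 16.3 CPM in vector ones (log2 fold change 0.98 ± 0.34 SE, edgeR adjusted p = 0.0165). Its highest levels in the KLF2 libraries, 92 and 49.2 CPM, were in a cluster of 55 and 132 KLF2 cells with no vector cell, and in the shared cluster it did not pass (4.30 and 41.2 CPM, against 17.9 CPM, edgeR adjusted p = 0.859). Col6a6 (14.6 and 23.4 CPM, against 0.111 CPM, edgeR adjusted p = 4.1e-10), Col23a1 (12.5 and 19.9 CPM, against 0.997 CPM, edgeR adjusted p = 5.1e-05) and Col11a1 (3.13 and 14.4 CPM, against no UMI, at least 29.9-fold, edgeR adjusted p = 0.00184) were the other calls. None of those 3 was above the level in lymphocyte- and neutrophil-like cells in any library.

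Col4a1, Col4a2 and Col18a1, with high counts in endothelial-like cells, did not pass. Col4a1 had 2559 and 1292 CPM in KLF2 endothelial-like cells, against 2138 CPM in vector ones (log2 fold change −0.59 ± 0.25 SE, edgeR adjusted p = 0.058), and Col4a2 1017 and 573 CPM, against 808 CPM (−0.45 ± 0.27, edgeR adjusted p = 0.21). The vector value lay between the KLF2 values for both. Col18a1 had 279 and 199 CPM, against 283 CPM (−0.67 ± 0.29, edgeR adjusted p = 0.0762). In the shared cluster Col4a1 stood at 4103 and 2124 CPM in KLF2, against 1621 CPM in vector, and Col18a1 at 505 and 387 CPM, against 1061 CPM. The 26 collagens not tested in this class had no value above 6.32 CPM in any library. Summed T cell markers were 2.09 and 11.0 CPM in the KLF2 endothelial-like cells, against 223 CPM in the vector ones, and their part in these results was not tested.

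The log2 difference of the KLF2 libraries from the vector library was unlike in mesenchymal-like and endothelial-like cells for 5 of 31 collagens tested with an interaction term. It was higher in mesenchymal-like cells for 3 (9.68%, against 1.19% of all genes) and lower for 2 (6.45%, against 2.75%). Col8a1 differed by 3.39 ± 0.45 SE on the log2 scale (edgeR adjusted p = 1.1e-08), Col15a1 by 2.01 ± 0.40 (edgeR adjusted p = 2.9e-04) and Col1a2 by 0.93 ± 0.28 (edgeR adjusted p = 0.0401). Col16a1 differed by −2.59 ± 0.64 (edgeR adjusted p = 0.00562) and Col6a6 by −4.64 ± 1.39 (edgeR adjusted p = 0.0351). For Col8a1 and Col15a1 the KLF2 level passed as lower in endothelial-like cells, against no call in mesenchymal-like cells.

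In the tumour/parenchymal compartment, Col4a1, Col4a2, Col27a1 and the multiplexins Col15a1 and Col18a1 were lower in KLF2, and several collagens hardly counted in the vector library were higher. Of 43 collagens tested, 8 were higher in KLF2 (18.6%, against 13.2% of all genes tested) and 5 were lower (11.6%, against 10.6%). Col6a4 alone was not tested, at 0.0945 and 0.103 CPM in KLF2, against no UMI in vector. The median log2 fold change was 1.79 for the collagens as fitted and 0.82 with the genes absent from the vector compartment at their lower bound, of which 4 had none, and 0.65 for all genes. Scaling by total UMIs moves the median gene up by 0.69.

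Col4a1 had 18.4 and 10.6 CPM in the KLF2 compartment, against 162 CPM in the vector compartment (log2 fold change −4.17 ± 0.39 SE, edgeR adjusted p = 0.00616), and Col4a2 had 9.34 and 5.64 CPM, against 61.2 CPM (−3.72 ± 0.37, edgeR adjusted p = 0.00662). Col18a1 had 7.82 and 3.15 CPM, against 52.1 CPM (−3.94 ± 0.57, edgeR adjusted p = 0.0144). Col15a1 had 1.89 and 1.32 CPM, against 11.9 CPM (−3.58 ± 0.41, edgeR adjusted p = 0.00871), and Col27a1, a fibrillar chain of cartilage, 1.13 and 0.989 CPM, against 3.35 CPM (−2.34 ± 0.50, edgeR adjusted p = 0.0358), a call lost under scaling by total UMIs (edgeR adjusted p = 0.059). In all 5 both KLF2 values lay below the single vector value, an order that is frequent between 2 libraries and 1 even without a difference. Summed endothelial markers were 31.0 and 30.4 CPM in the KLF2 compartment, against 256 CPM in the vector one, with 12 of 12 detected in each, and their part in these results was not tested. In lymphocyte- and neutrophil-like cells Col4a1 stood at 15 and 16.2 CPM in the KLF2 libraries, against 96.5 CPM in the vector library.

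Col23a1, Col11a1 and Col22a1 were called higher in the KLF2 compartment. Each was above the lymphocyte and neutrophil level of both KLF2 libraries in several clusters of the compartment. Col23a1 (chromosome 11, 51289920 to 51583918) had 60.1 and 52.3 CPM in the KLF2 compartment, against 0.609 CPM from 2 UMIs in the vector compartment (ratio 91.6, counting interval 25.3 to 756, edgeR adjusted p = 0.00463). A cluster led by Lsamp (92 and 116 KLF2 cells) had 825 and 596 CPM of Col23a1, and one led by Myo5b (64 and 261 cells) 228 and 145 CPM. Col11a1 had 38.7 and 61.5 CPM, against no UMI (at least 56.3-fold, edgeR adjusted p = 0.00809), with 180 and 272 CPM in the Lsamp-led cluster. Col22a1, a FACIT collagen of tissue junctions, had 13.7 and 21.0 CPM, against no UMI (at least 19.5-fold, edgeR adjusted p = 0.0122), with 126 and 145 CPM in the Myo5b-led cluster. Neither the Lsamp-led nor the Myo5b-led cluster had a vector cell.

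Col11a2, Col6a6, Col9a1, Col9a2 and Col4a4 also passed. Col11a2 had 20.4 and 16 CPM in the KLF2 compartment, against 0.304 CPM from 1 UMI in the vector one (ratio 59, counting interval 10.6 to 2329, edgeR adjusted p = 0.0101). Col6a6 was at least 11.4-fold, Col9a1 at least 4.98-fold, Col9a2 at least 4.2-fold and Col4a4 at least 2.57-fold higher over a vector floor of 3 UMIs (edgeR adjusted p between 0.0177 and 0.0447). Of these 5 genes Col9a1 was above the lymphocyte and neutrophil level in both KLF2 libraries and Col11a2 in KLF2 replicate 1 alone, while Col6a6, Col9a2 and Col4a4 were above it in neither. The part of free RNA in these calls was not tested. Col16a1, a FACIT collagen, did not pass (23.0 and 58.1 CPM, against 3.96 CPM, edgeR adjusted p = 0.0791) and was the one member above the lymphocyte and neutrophil level in the compartment of all 3 libraries. In the largest cholangiocyte-like cluster it stood at 85.1 and 164 CPM in the KLF2 libraries. Col1a1 (694 and 225 CPM, against 104 CPM, edgeR adjusted p = 0.226) and Col1a2 (339 and 68.0 CPM, against 43.2 CPM, edgeR adjusted p = 0.334) did not pass. For both chains the KLF2 replicates lay farther apart than KLF2 replicate 2 and the vector library. Without the Ibsp-led cluster 10 collagens were higher and 6 lower, and in hepatocyte lineage-like cells alone none of the 8 tested was called in either direction. The shares over all genes in these settings are not given here. Of the hepatocyte lineage-like clusters, 1 had 2 and 9 KLF2 cells, against 378 vector cells, and the other 18 and 48, against 271. With so few KLF2 cells the lack of calls there says little.

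Leukocytes are not known as a source of most collagens, and the level in lymphocyte- and neutrophil-like cells served as a stand-in for the free RNA level. Doublets were kept, and their part in that level was not tested. In vector T/NK-like cells 1 cell held 52 of 1254 Col1a1 UMIs. In those of KLF2 replicate 2, 1 cell held 15 of 60 Col1a2 UMIs. Among 24 collagens tested in myeloid-like cells, 4 were higher in KLF2 (16.7%, against 12.6% of all genes) and 4 were lower (16.7%, against 7.68%). In T/NK-like cells 3 of 17 were higher (17.6%, against 11.8%) and 3 were lower (17.6%, against 9.2%). Col4a1 had 11.3 and 10.9 CPM in KLF2 myeloid-like cells, against 78.1 CPM in vector ones (edgeR adjusted p = 0.00119), and 6.72 and 10.6 CPM in KLF2 T/NK-like cells, against 90.8 CPM in vector ones (edgeR adjusted p = 2.8e-18). Col4a2 and Col18a1 were lower in KLF2 in both leukocyte classes too, and Col3a1 in myeloid-like cells. Col11a1, Col6a6 and Col23a1 were higher in KLF2 in both, and Col22a1 in myeloid-like cells.

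**Figure D5:**
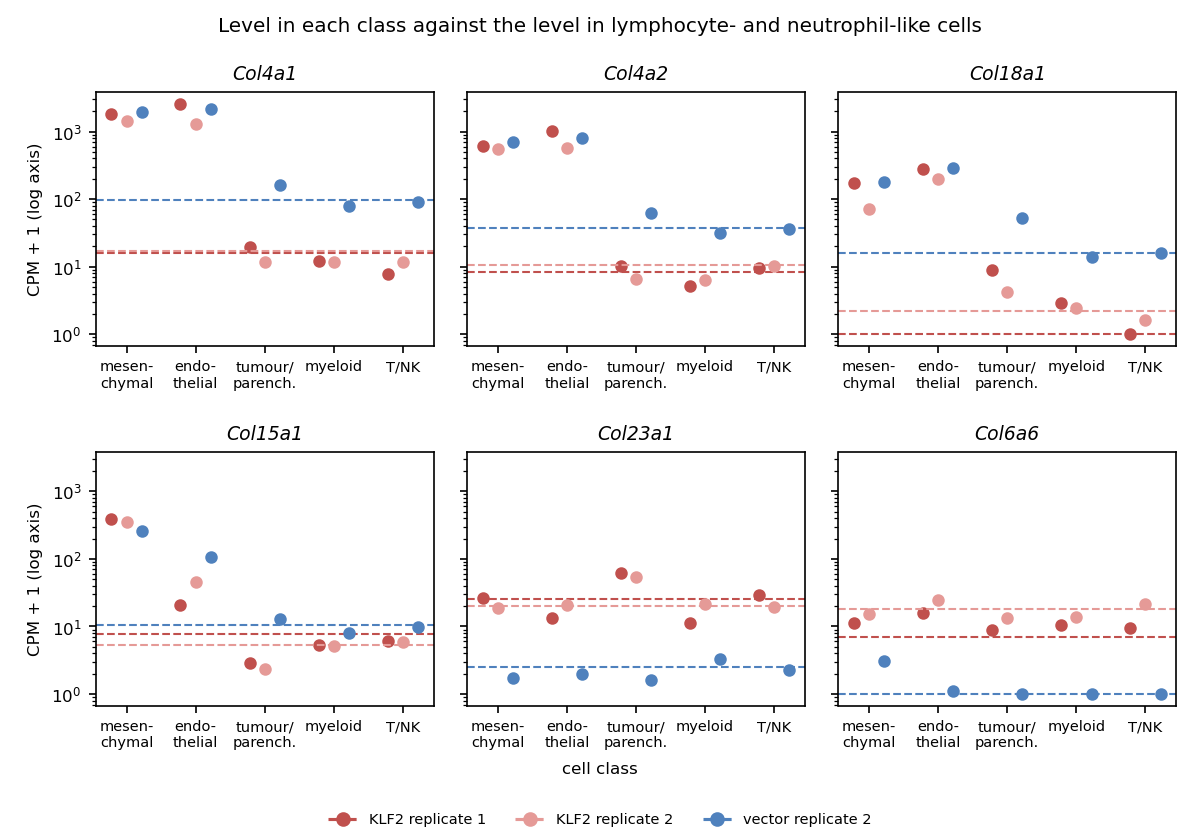
Level (CPM + 1, log axis) of 6 collagens in 5 cell classes, with a point for each library, KLF2 left of vector, and dashed lines at the pooled level in T/NK-, B/plasma- and neutrophil-like cells of that library. Col4a1 in mesenchymal-like and endothelial-like cells lies far above its lines (15 and 16.2 CPM in KLF2, 96.5 CPM in vector), while Col23a1 and Col6a6 of the KLF2 libraries lie near theirs in most classes.

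Against the pooled level in T/NK-, B/plasma- and neutrophil-like cells, 20 of the 44 collagens were above it in mesenchymal-like cells of all 3 libraries. In endothelial-like cells the count was 5, namely Col4a1, Col4a2, Col13a1, Col18a1 and Col27a1, in the compartment it was 1 and in myeloid-like cells 0. The share of all genes above that level is not given here. Classes with more UMIs also have narrower counting intervals, so these counts describe the members alone and do not rank the classes. In the compartment 9 further members were above it in both KLF2 libraries alone, among them Col1a1, Col11a1, Col22a1 and Col23a1, and Col4a1 and Col4a2 in the vector library alone. Col14a1 was above it in KLF2 myeloid-like cells alone, at 27.8 and 16.2 CPM, against a pooled level of 2.99 and 3.96 CPM. Vector myeloid-like cells had 8.12 CPM of Col14a1. The difference between the groups did not pass the edgeR test (log2 fold change 1.09 ± 0.42 SE). In 1 macrophage cluster Col14a1 reached 40.4 and 18.4 CPM in the KLF2 libraries.

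The genes that make, process and bind collagen were counted in 8 lists. The lists were chosen with earlier results of these data known, so their counts are descriptive. They are to be read beside the shares over all genes of the class. In mesenchymal-like cells, where 11.5% of all genes were higher and 9.44% lower, 3 of 21 tested genes of collagen modification and folding were higher in KLF2 and none lower, with Plod2, a lysyl hydroxylase, at 260 and 168 CPM in KLF2, against 48.8 CPM in vector (log2 fold change 1.5 ± 0.47 SE, edgeR adjusted p = 0.0104). Processing and crosslinking genes had 2 higher and 1 lower of 11, among them the lysyl oxidase relative Loxl3 (1.31 ± 0.48, edgeR adjusted p = 0.0325) and the procollagen enhancer Pcolce (−1.08 ± 0.42, edgeR adjusted p = 0.0476). Basement membrane partners had 4 lower of 14 and none higher, among them the nidogen Nid2 (25 and 21.7 CPM, against 51.2 CPM, edgeR adjusted p = 0.00123) and perlecan, Hspg2 (161 and 110 CPM, against 215 CPM, edgeR adjusted p = 0.0148). Collagen receptors had 1 lower of 7, collagenolysis and its inhibitors 1 higher of 10, collagen-binding proteoglycans 1 higher and 1 lower of 7, and the transforming growth factor beta list 3 higher and 2 lower of 9. Bone and cartilage matrix genes had 5 higher of 6, among them Spp1, osteopontin, at 1265 and 2390 CPM in KLF2, against 34.0 CPM in vector (5.13 ± 0.51, edgeR adjusted p = 5.3e-21). Spp1 was also a leading gene of a myeloid-like cluster without vector cells. The part of free RNA in its result, and in the rest of the bone and cartilage list, was not tested. Medians of these lists ran between −0.47 and 2.75, beside 0.05 for all genes.

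In endothelial-like cells, where 14.2% of all genes were higher and 13.6% lower, 4 of 19 modification genes were higher in KLF2, with the prolyl hydroxylase P4ha1 at 83.5 and 70.1 CPM, against 29.0 CPM (log2 fold change 0.99 ± 0.30 SE, edgeR adjusted p = 0.00634). Basement membrane partners had 1 higher and 2 lower of 11, with Nid1 at 498 and 286 CPM in KLF2, against 140 CPM in vector (1.06 ± 0.31, edgeR adjusted p = 0.00423) and Hspg2 at 420 and 250 CPM, against 575 CPM (−1.21 ± 0.28, edgeR adjusted p = 1.6e-04). Bone and cartilage matrix genes had 4 higher of 5, processing genes 1 lower of 5, receptors 1 higher of 4, collagenolysis genes 1 higher and 1 lower of 6, proteoglycans neither of 3 and transforming growth factor beta genes 3 higher and 1 lower of 8. The Ibsp-led cluster had KLF2 cells alone, and the part of free RNA in the bone and cartilage count was not tested. In the compartment, where 13.2% of all genes were higher and 10.6% lower, 8 of 21 modification genes were higher and 1 lower, with Plod2 at 52.0 and 41.6 CPM in KLF2, against 1.22 CPM in vector. Basement membrane partners there had 3 higher and 3 lower of 16, and bone and cartilage matrix genes 4 higher and 1 lower of 11, with Runx2, the osteoblast factor, at 82.0 and 80.5 CPM in KLF2, against 4.57 CPM in vector (3.46 ± 0.30, edgeR adjusted p = 0.00557). Processing genes there had 2 higher of 14, receptors 1 higher and 1 lower of 10, collagenolysis genes 2 higher of 14, proteoglycans neither of 7 and transforming growth factor beta genes 3 higher and 2 lower of 9.

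Collagens are long genes, and length moved with the direction of the calls over all genes. The median span of the 44 collagens was 114 kb, against 17.4 kb for 21924 protein-coding genes. In mesenchymal-like cells the collagens called higher in KLF2 had a median span of 237 kb and those called lower 114 kb. Over all genes of that class, those called higher had a median of 105 kb, those called lower 12 kb and those tested 26.7 kb. The part of gene length in the collagen calls was not tested.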

How the data were processed

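The authors deposited raw UMI counts for each gene in each barcode, as whole numbers without normalisation. PISA v1.0 wrote the matrices, per the file headers, and GRCm38 was the build, per the submitters' processing notes. Which aligner and cell caller were used is not given in the sources used here. Tumours were minced and digested for 30 min per the labels. Barcodes with fewer than 300 genes or over 25% mitochondrial UMIs were dropped. The others were clustered with scanpy 1.11.5 and leidenalg 0.10.2 (2000 variable genes without collagens, 30 principal components, 15 neighbours, resolution 1.0). Clusters were named where a type's markers rose by a mean log2 change of 1.0 (prior 20 CPM), led the next type by 0.5 and at least 3 were in 25% of cells. The compartment joins hepatocyte lineage-like, cholangiocyte-like and unnamed clusters with under 100 CPM of Ptprc. Scrublet called 0 cells in every library, so it did not work, and doublets were kept.

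UMIs were summed per library and class (at least 50 cells in each library) and compared by edgeR 4.0.16 with its quasi-likelihood test (filterByExpr filter, TMM scaling, Benjamini-Hochberg adjusted p at 0.05 over all genes). For KLF2 against vector, and for the interaction term, the spread comes from the 2 KLF2 libraries. These leave 1 residual degree of freedom, moderated over genes, and the lone vector library is taken to vary like these. The comparison of mesenchymal-like with endothelial-like cells takes its spread from every library, with the library as a block. DESeq2 1.42.0 was an alternative. Folds against a class without UMIs use a floor of 3 UMIs over the class. Intervals are 95% (exact for counts and ratios, Wilson for shares), and floors and intervals cover counting error only. On simulated counts for 10094 mesenchymal-like genes, 82.1% of log2 changes of 2 and 97.9% of log2 changes of 3 were recovered. The changed genes were drawn from those with higher expected counts, and all genes were given the same spread. These rates therefore do not cover genes at a few UMIs or with KLF2 libraries far apart. Named genes were every collagen past 0.05, the highest-count members of each structural group and up to 4 genes of a pathway list. Members and lists were chosen with earlier results of these data known. Gene positions are from GENCODE.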

Additional observations from a re-analysis of the deposited data

Results flagged for a closer look

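The change from the vector library to the KLF2 libraries differed between mesenchymal-like and endothelial-like cells for 5 collagens by an interaction term in edgeR. The difference, mesenchymal-like minus endothelial-like on the log2 scale, was 3.39 ± 0.45 SE for Col8a1 (adjusted p = 1.1e-08 by edgeR), with 289 and 386 CPM in KLF2 and 368 CPM in vector mesenchymal-like cells, and 3.13 and 13.7 CPM in KLF2 and 116 CPM in vector endothelial-like cells. It was 2.01 ± 0.40 for Col15a1 (adjusted p = 2.9e-04 by edgeR), whose endothelial-like difference turned round in the cluster shared by all libraries. It was 0.93 ± 0.28 for Col1a2 (adjusted p = 0.0401 by edgeR), which in endothelial-like cells lay near the level in lymphocyte- and neutrophil-like cells. It was −2.59 ± 0.64 for Col16a1 (adjusted p = 0.00562 by edgeR), with 69.2 and 73.5 CPM in KLF2 and 67.4 CPM in vector mesenchymal-like cells, and 3.13 and 12.4 CPM in KLF2 and 1.44 CPM in vector endothelial-like cells. These endothelial-like values of Col16a1 were not above the lymphocyte and neutrophil level in both KLF2 libraries. It was −4.64 ± 1.39 for Col6a6 (adjusted p = 0.0351 by edgeR), which rests on 1 vector UMI in endothelial-like cells. In each case the groups had different clusters within a class, and the part of that difference was not tested. The groups also differed in depth and mitochondrial share, and the part of these was not tested either.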

How the results depend on the processing

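Of 883 values of named collagens under the alternatives, 740 kept their direction and side of the threshold, 89 kept their direction but no longer passed, 53 moved and 1 reversed. The reversed one was Col15a1 in endothelial-like cells, at 1.20 in the shared cluster alone. Calls that held in every alternative in which the gene was tested were 1 of 11 in mesenchymal-like cells (Col11a1), 1 of 9 in endothelial-like cells (Col23a1), 5 of 13 in the compartment, 3 of 8 in myeloid-like, 3 of 6 in T/NK-like cells and 15 of 21 between mesenchymal-like and endothelial-like cells. No alternative removed free RNA. Col23a1 in endothelial-like cells was above the lymphocyte and neutrophil level in no library. Col11a1 in mesenchymal-like cells was above it in KLF2 replicate 1 alone. Counts that moved by over 1.5 times are given next, and the cause was not tested except that thinning and class restriction leave fewer collagens to test. The number of collagens tested and the share of all genes called in each setting are not given here. These counts therefore describe the members alone. Thinning cells to 1000 UMIs left 0 higher in mesenchymal-like, 0 higher and 0 lower in endothelial-like, 0 higher and 2 lower in myeloid-like, 0 higher and 1 lower in T/NK-like cells, and 0 lower in mesenchymal-like than endothelial-like cells. DESeq2 gave 2 higher and 1 lower in mesenchymal-like, 1 lower in endothelial-like and 1 lower in T/NK-like cells, and 1 lower in mesenchymal-like than endothelial-like cells. Without a filter on low counts 8 were lower in endothelial-like cells, 14 higher in the compartment, 7 higher in myeloid-like and 5 higher in T/NK-like cells. Without mitochondrial and rRNA-overlapping genes 2 were higher and 3 lower in endothelial-like cells, and at most 10% mitochondrial UMIs gave 5 higher in T/NK-like cells. The 2 collagens lower in mesenchymal-like than endothelial-like cells became 1 with no library block, at Leiden resolution 0.5, with at least 500 genes per cell, without the 5% highest doublet scores, and between 1 and 2 when a library was left out. Chosen after seeing the data, scaling by total UMIs gave 0 lower in mesenchymal-like and 3 lower in endothelial-like cells and 14 higher in the compartment. It also raised the share of higher calls among all genes to 84.3% in mesenchymal-like cells, against 54.8% by TMM, 79.1% in endothelial-like cells, against 51.1%, 79.5% in the compartment, against 55.5%, 79.7% in myeloid-like cells, against 62.1%, and 76.5% in T/NK-like cells, against 56.2%. Also chosen after seeing the data, the shared clusters alone gave 5 higher and 1 lower in mesenchymal-like and 1 higher in endothelial-like cells, and hepatocyte lineage-like cells alone 0 higher and 0 lower. Of these restricted sets, the endothelial-like and hepatocyte lineage-like ones did not reach 50 cells in KLF2 replicate 1.

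No paired analysis was possible because KLF2 and vector libraries with a matrix share fewer than 2 replicate numbers. With 1 vector library the spread between vector samples was not measured, and leaving out a KLF2 library left differences without a test. Genes at a few UMIs have wide counting intervals, and the compartment's cells differ between groups.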
